A study of Mus musculus with 102 samples.

Results

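Brain was set against spleen of the same animals in 7 male WT mice of 3 months, whose sample titles carry the strain name BL6J. The study sequenced RNA of brain and spleen from 45 mice of several ages, and spleen of a further set of WT and mTOR mice that is not used here. All mice compared here are untreated as far as the labels say, and the labels name no brain region. The 14 columns were each rescaled to RPM, that is reads per 1000000 of the reads in genes, and a gene entered when it reached 10 RPM in at least 7 of the 14. That rule left 10946 of the 51810 gene rows. Of these, 6331 reached the level in all 7 brains and all 7 spleens. The 7 brains alone carried 2459 genes over it, the 7 spleens alone 1889, and a mix of both 267. A gene that entered through 1 tissue alone was under the level in some library of the other, so a difference was built into its choice and counts of such genes are descriptions.

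The brain is built of excitatory and inhibitory neurons, astrocytes, myelinating oligodendrocytes, microglia and vessels, and neurons hold most of the machinery for releasing and sensing transmitters. The spleen is a blood filter and a lymphoid organ: its white pulp holds B and T lymphocytes, and its red pulp holds macrophages that take up old red cells and recycle their iron. In mice it also makes blood cells. These are bulk libraries, in which fewer cells of a type and less RNA per cell cannot be told apart.

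Each library held 4212565 to 9374535 reads in genes for brain and 3105557 to 9068038 for spleen. At least 10 RPM were reached by 9301 to 9901 genes per brain and 9189 to 10059 per spleen. The tissues were deposited as separate tables, so tissue and any difference in how the libraries were handled cannot be told apart. Listed at 0 in all 90 ageing libraries are 21080 rows, among them B2m, Gfap, Ms4a1, Igkc, Nefl and P2ry12. Such a 0 is not read as absence here, since lack of expression and a gene not counted cannot be told apart. Of 1298 protein-coding genes whose whole span lies inside other genes, 1141 are at 0 (87.9%), against 9.93% of the 11674 genes that share no part of their span. How reads that fit several places or both strands were counted is not given in the sources used here, so values of genes with near-identical copies are uncertain, which holds for ribosomal proteins, haemoglobins, class I H2 genes, immunoglobulin constant regions, tubulins, actins and Gapdh.

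The spleen of mouse 5 stood apart. The SD of its log2 deviations from the spleen mean, over all tested genes, was 0.607, against 0.275 to 0.41 in the other 6 spleens. Its summed macrophage genes reached 4414 RPM, where the other spleens had 874 to 1843. Its summed B-cell genes reached 5806, where the others had 9099 to 11063. Its T-cell genes were low and its plasma-cell and fat-cell genes high in the same way, as the plot of list sums by mouse shows. Its summed complement genes, which are not plotted, reached 3279 RPM, where the others had 1019 to 1510. The part of this library in the results was not tested beyond leaving it out. Without mouse 5, 3017 genes were more than 2-fold higher in brain and 2613 in spleen, counts that belong to the comparison given next.

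**Figure D1:**
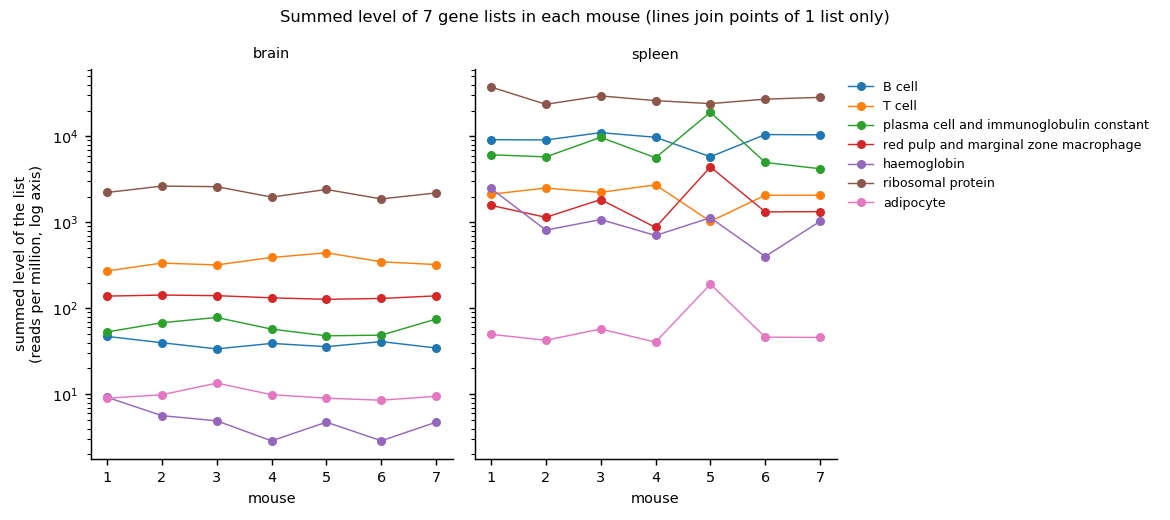
Summed level of 7 gene lists (vertical axis, RPM, log scale) in each mouse (horizontal axis), brain on the left and spleen on the right. The spleen of mouse 5 has 4414 RPM of macrophage genes and 1028 of T-cell genes, the highest and the lowest of the 7 spleens.

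Most expressed genes differed between the tissues. Log2 of RPM plus 1 was compared within mice with limma, and 9205 genes (84.1% of those tested) differed at an adjusted p under 0.05, 4537 of them higher in brain and 4668 higher in spleen. Against a limit of 2-fold, 2893 genes (26.4%) were higher in brain and 2554 (23.3%) higher in spleen, 49.8% in either direction. From here on "higher" means past this 2-fold test, and the number in brackets after a gene is its log2 difference, brain minus spleen, on the scale of RPM plus 1, which understates the change of low genes. Of the 5447 genes past it, 5410 had no overlap between the 7 brains and the 7 spleens, while 7401 of all tested genes (67.6%) had none. Over all tested genes the median log2 difference was -0.04 and the median size 1.33. More than 64-fold apart were 255 genes on the brain side and 179 on the spleen side. A further 806 genes (7.36%) were level, meaning that the 95% interval of the difference lay within -0.5 to 0.5.

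**Figure D2:**
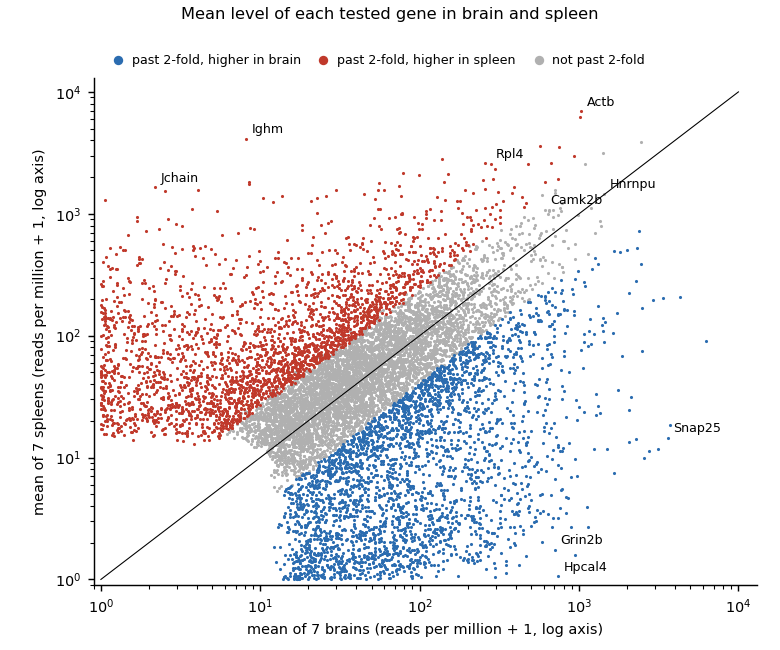
Mean level of each of the 10946 tested genes in 7 brains (horizontal axis) and 7 spleens (vertical axis), in RPM plus 1 on log axes; the line marks equal means. Blue points are the 2893 genes past 2-fold higher in brain, red points the 2554 higher in spleen, and grey points the rest.

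Among the 12 genes with the largest difference towards brain were calcium sensors, receptors and transporters of the synapse and a factor of cortical neurons. Hpcal4, a neuronal calcium sensor on chromosome 4 (123183227 to 123194701, GRCm38, plus strand), had 652, 722 and 853 in the brains, against 0, 0 and 0.322 in the spleens (lowest, median and highest of 7, in RPM). Every brain stood far above every spleen, and the pooled level was higher in brain by 19020.2-fold (95% exact interval 5265 to 157061, from 2 reads in the 7 spleens together), an interval of counting error only. Grin2b, a subunit of the NMDA glutamate receptor, had 541, 689 and 896 in the brains, against 0.462, 0.644 and 1.28 in the spleens, a log2 difference of 8.66 ± 0.14 (SE, 7 pairs). Slc17a7, the transporter that loads glutamate into vesicles of cortical excitatory neurons, had 359, 549 and 801 in the brains, against 0.221, 0.496 and 3.21 in the spleens. No brain overlapped a spleen for any of these. Snhg11, a host transcript of small nucleolar RNAs, had 2303, 3446 and 3692 in the brains, against 6.73, 9.66 and 20.3 in the spleens. The others were Ddn, a protein of dendrites (9.24), Arpp21, a phosphoprotein regulated by cAMP (8.79), Frrs1l, a partner of AMPA receptors (8.43), the calcium sensor Hpca (8.32), the vesicle protein Nrsn1 (8.25), the vesicle GTPase Rab3c (8.23) and AI593442 (8.28). Tbr1, a transcription factor of cortical projection neurons, had 243, 292 and 370.0 in the brains, against 0, 0 and 0.256 in the spleens, higher in brain by 5029-fold (95% exact interval 1721 to 24390.3, from 3 reads in the 7 spleens together).

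The 12 genes with the largest difference towards spleen belong mostly to B cells, antibodies and antigen presentation. Jchain, which joins antibody units into IgM and IgA polymers (chromosome 5, 88519809 to 88527891, GRCm38, minus strand), had 0, 1.16 and 1.89 in the brains, against 772, 1509 and 3299 in the spleens. Cd74, the invariant chain of MHC class II, had 0.95, 1.49 and 2.39 in the brains, against 1019.8, 1469 and 2152 in the spleens. Their log2 differences were -9.49 ± 0.28 and -9.25 ± 0.12, and no brain reached the lowest spleen. Ighm, the constant region of IgM, had 4.51, 6.83 and 10.3 in the brains, against 1837, 2399.5 and 12013 in the spleens. Ighg3, the constant region of IgG3, had 0, 0 and 0.238 in the brains, against 107, 472 and 6271 in the spleens, so that a single spleen, that of mouse 5, lay far above the other 6. The B-cell scaffold Bank1 (-9.07) and Cr2, a complement receptor of B cells (-8.57), were lowest in that same spleen, at 297 and 545 RPM. The list also held the B-cell receptor chain Cd79a (-8.79), the inhibitory receptor Cd22 (-8.67), the lymphocyte GTPases Gimap4 (-9.01) and Gimap3 (-8.57), the class II chain H2-Ab1 (-8.56) and Cmah, a sialic acid enzyme (-8.45).

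The 12 level genes with the highest mean RPM, a measure not corrected for gene length, handle RNA and protein for the most part. Hnrnpu, a nuclear RNA-binding protein, had 1229, 1432 and 1721 in the brains, against 1143, 1473 and 1864 in the spleens, a log2 difference of -0.01 with a 95% interval of -0.35 to 0.32. Canx, a chaperone of the endoplasmic reticulum, had 857, 985 and 1210.5 in the brains, against 835, 965 and 1204 in the spleens. Both pairs of ranges overlapped. The others were the RNA-binding proteins Hnrnpd (-0.08), Matr3 (-0.06) and Cnbp (0.15), the initiation factor Eif4g3 (0.18), the translocon subunit Sec62 (-0.17), the transcription cofactor Sub1 (-0.19), the membrane proteins Itm2b (0.02) and Laptm4a (-0.02), the kinase substrate Marcks (-0.21) and the kinase Ptk2b (0.12). Itm2b reached 1814 RPM in the spleen of mouse 5. Over the 405 genes named in the text as higher in 1 tissue, limma's adjusted p for a difference over 2-fold was at most 0.0492, and the SE of the 511 differences of named genes ran from 0.11 to 0.44. Brains and spleens did not overlap for 404 of the 405, the exception being Cdkn1a. The same held for 5410 of all 5447 genes past 2-fold and for 67.6% of all tested genes. For 16 of the 405 another setting or leaving out a mouse ended the call: Actl6a, Bcl6, Cdkn1a, Csf1r, Fkbp5, Grn, Hnrnpc, Mlst8, Ndufa9, Pik3r2, Psmc2, Psmd4, Rac1, Rhoa, Smarce1 and Ss18.

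**Figure D3:**
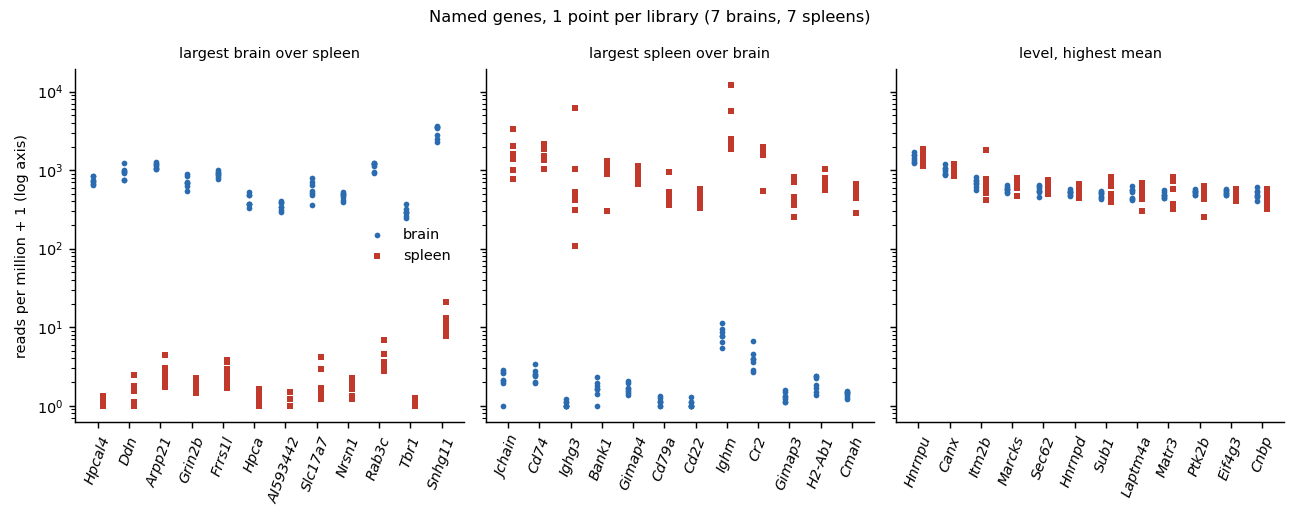
Level of the 36 genes chosen by size of difference (RPM plus 1, log axis), with 1 blue circle per brain and 1 red square per spleen. In the left and middle panels the tissues are separate for every gene, in the right panel they overlap, and a single spleen reaches 6271 RPM of Ighg3.

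Markers of neurons, used to check the brain label, were high in brain. All 17 tested genes of 18 pan-neuronal markers were higher, 11 of which had entered through the brains alone, and the median difference was 5.94. Snap25, a core protein of vesicle fusion, had 2888, 3516 and 4551 in the brains, against 7.72, 10.9 and 25 in the spleens. Map2, of the dendritic cytoskeleton (7.32), Stmn3, which binds tubulin (7.17), and the RNA-binding protein Elavl4 (6.92) followed. Their spleen levels were not 0: Thy1, which T cells also carry (2.36), and the neurofilament Nefh (2.69) had the smallest differences of the list. The summed level of the markers was 12479 to 15108 RPM in the brains, against 205 to 302 in the spleens.

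Excitatory and inhibitory neurons were both represented. Of 14 glutamatergic markers 13 were tested and higher in brain, 12 of which had entered through the brains alone. Among them were Camk2a (7.29), a kinase of the postsynapse, and Nptx1 (7.12), which gathers AMPA receptors, beside Slc17a7 and Tbr1. Of 14 GABAergic markers 12 were tested and higher, led by Gad2 and Gad1, which make GABA (7.02 and 6.40), and the peptides Cck (6.79) and Sst (6.64). All 12 had entered through the brains alone, so a difference was built into their choice. Of 13 tested striatal markers, 12 of which had entered through the brains alone, 11 were higher. Among them were the peptide precursor Tac1 (6.86), the dopamine signalling protein Ppp1r1b (5.86) and the dopamine receptor Drd1 (5.38). The adenosine receptor Adora2a (1.28) and the retinoic acid receptor Rarb (0.36) did not pass.

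Some markers of brain regions were low in the brain libraries, and Gabra6, Cbln3 and Cdh15 of cerebellar granule cells were near 0. Gabra6, a receptor subunit of cerebellar granule cells, averaged 0.327 ± 0.596 RPM in brain, against 1.47 ± 0.849 in spleen (SD, n = 7 each). Cbln3 and Cdh15, of the same cells, averaged 0.866 ± 1.11 and 0.621 ± 0.173 in brain, against 2.08 ± 0.958 and 0.102 ± 0.118 in spleen. Pcp2 of Purkinje cells is listed at 0 in all libraries, where lack of expression and a gene not counted cannot be told apart. All 6 tested members of the cerebellar list were higher in brain, 5 having entered through the brains alone. They included Calb1 (5.85), Zic1 (4.86), Grm4 (4.11) and Zic2 (3.68), which also mark other regions. Calb1 buffers calcium, Grm4 is a glutamate receptor and the Zic genes encode zinc finger factors. The whole list summed to 1276 to 1787 RPM in the brains, against 192 to 348 in the spleens. Of 14 hypothalamic and pituitary markers 1 entered, Hap1 (2.06), and the peptide precursors Avp and Pmch averaged 5.84 ± 4.13 and 8.76 ± 4.4 RPM in brain, against 0 ± 0 and 0.0673 ± 0.132 in spleen. With an entry level of 1 RPM, 6 of these markers were higher in brain, and 6 of the monoamine and acetylcholine markers. Of the monoamine and acetylcholine markers, Ache, which breaks down acetylcholine (2.78), and Ddc, which makes dopamine and serotonin (2.23), were higher, while Th and Tph2 stayed under the entry level. Which part of the brain was taken was not tested. The markers with a low level were named for it after it was seen.

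Glia of the neural lineage followed the same direction. Of 14 tested astrocyte markers, 10 of which had entered through the brains alone, 13 were higher in brain, with a median of 4.19. Slc1a2, which clears glutamate from the synapse, had 2421, 2624 and 3267 in the brains, against 8.37, 10.4 and 11.8 in the spleens. Slc4a4, a bicarbonate transporter (6.85), the water channel Aqp4 (5.81) and the glycolytic enzyme Aldoc (5.72) followed, and Clu, a secreted chaperone (-0.63), did not pass. Of 13 tested oligodendrocyte markers 13 were higher, 10 having entered through the brains alone. Among them were Mobp, a protein of myelin (6.21), Ugt8a, which makes myelin lipid (6.30), and Cldn11, of its tight junctions (6.04). Of the precursor markers 5 of 6 were higher, the lineage factors Olig1 (6.66), Olig2 (5.56) and Sox10 (3.95) with Bcas1 (4.70) and Vcan (3.13), and the receptor Pdgfra (0.52) did not pass. The brains alone had carried 5 of these 6 over the entry level. The choroid plexus gene Ttr, which carries thyroid hormone (5.60), was higher together with Kl (4.03) and Enpp2 (2.03).

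Microglia and vessels have relatives in the spleen, and their markers were divided. Of 12 tested microglial genes 1 was higher in brain and 8 were higher in spleen. Through the spleens alone 5 of the 12 had entered, and 3 of the 19 listed are at 0 in all libraries. With an entry level of 1 RPM, 4 microglial genes were higher in brain. Sall1, a transcription factor particular to microglia among macrophages, had 32.2, 38.9 and 49.9 in the brains, against 0, 0.221 and 0.375 in the spleens. Genes that macrophages share went the other way: Aif1 (-4.67), the adhesion ligand Selplg (-3.42), the adaptor Tyrobp (-3.33), the growth factor receptor Csf1r (-1.63) and the complement chains C1qa (-2.31), C1qb (-2.42) and C1qc (-2.31). Siglech (-2.82), which was also listed for dendritic cells, was higher in spleen too. Cx3cr1 (-0.37) and Sparc (0.57) did not pass. Of the vessel genes 5 of 13 were higher in brain, among them the barrier transporters Slco1a4 (6.20) and Slco1c1 (5.21) and Vtn of pericytes (4.32). Entry was through the brains alone for 6 of these 13 and through the spleens alone for 2. Pecam1, an adhesion molecule of all endothelium (-4.70), was higher in spleen, and the tight junction gene Cldn5 (0.25) did not pass.

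The release machinery of the synapse was higher in brain throughout. All 22 genes of the list were higher in brain, 17 having entered through the brains alone, with differences from 2.49 to 8.05. Syn2, which tethers vesicles, had 583, 687 and 791 in the brains, against 0.745, 1.62 and 4.3 in the spleens. Cplx1, which clamps fusion (6.93), had a large difference too, and Stx1a (2.49), Synj1 (2.72) and Vamp2 (3.61) had the smallest differences. Of the postsynaptic list all 23 were higher, 17 having entered through the brains alone. The AMPA receptor subunits Gria2 (7.98) and Gria1 (7.77) and the metabotropic receptor Grm5 (6.93) led after Grin2b. The scaffolds Shank3 (2.14) and Dlg2 (2.51) and the AMPA receptor partner Cacng8 (2.15) had the smallest differences. Of the inhibitory receptors 15 of 16 were higher, 14 of the 16 having entered through the brains alone. Among them were Glrb (7.74) and Gabrb2 (7.28), which are subunits of glycine and GABA receptors. Gphn, their anchor (-0.64), did not pass.

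Voltage-gated channels held exceptions. Of 24 tested, 20 were higher in brain, among them the potassium channel Kcnq3 (6.50) and the sodium channels Scn2a (6.93) and Scn1a (6.79). Entry was through the brains alone for 16 of the 24 and through the spleens alone for 2. Higher in spleen were Hvcn1, the proton channel of phagocytes and B cells (-6.0), and Kcnn4, a calcium-activated potassium channel of lymphocytes and red cells (-5.53). The calcium channel Cacna1e had 279, 373 and 434 in the brains, against 143, 239 and 287 in the spleens, ranges that overlap. Of the guidance and adhesion genes 19 of 24 were higher in brain, led by the ephrin receptors Epha4 (6.88) and Epha5 (6.07), the contactin Cntn1 (6.23) and the neurexin Nrxn3 (6.09). The brains alone had carried 15 of these 24 over the entry level. Sema4d, a semaphorin of lymphocytes (-2.35), was higher in spleen, and the semaphorin receptor Nrp2 (-0.19) was level.

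REST is a repressor that keeps neuronal genes off in other tissues by binding an element called RE1. Rest had 7.04, 11.7 and 14.5 in the brains, against 111, 169.7 and 200.1 in the spleens, and was higher in spleen (-3.77), as were its partner Rcor1 (-1.46) and the phosphatase Ctdsp1 (-1.93). The partners Rcor3 (1.03), Sin3a (-0.58), Ctdsp2 (0.25), Ehmt1 (-1.20) and Kdm1a (0.55) did not pass, and the methyltransferase Ehmt2 (0.03) was level. The letters TTCAGCACC, part of RE1, were looked for on both strands in RefSeq promoters (GRCm38.p6, 250 bases before to 50 after the start). They stood in 1.11% of 2169 promoters of genes higher in brain, 0.456% of 1972 of genes higher in spleen, 0.573% of those of all tested genes and 0.433% of all 27025. Printed here, with the letters in capitals, are the promoters of Dner (6.35), a neuronal Notch ligand, at chr1:84696348-84696387 (minus strand), of the vesicle protein Syn1 (6.33) at chrX:20921127-20921166 (minus strand), of the synaptic adhesion protein Nlgn1 (5.70) at chr3:26154116-26154155 (minus strand) and of the presynaptic scaffold Ppfia3 (5.27) at chr7:45367042-45367081 (minus strand).
Dner: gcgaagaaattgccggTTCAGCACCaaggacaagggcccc
Syn1: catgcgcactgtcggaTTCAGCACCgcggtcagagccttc
Nlgn1: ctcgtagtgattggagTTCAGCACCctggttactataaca
Ppfia3: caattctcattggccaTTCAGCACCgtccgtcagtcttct

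Among the lymphocytes of the spleen, B-cell genes stood furthest from brain. All 17 tested B-cell markers were higher in spleen, 16 having entered through the spleens alone, with a median of -7.90. Their summed level was 33.8 to 47.2 RPM in the brains, against 5806 to 11063 in the spleens. Pax5, the factor that holds B-cell identity, had 0.951, 1.81 and 3.6 in the brains, against 502, 838 and 1104 in the spleens. Marginal zone genes were higher for 7 of 10, with the antibody chaperone Mzb1 (-6.63), the receptor Fcrl5 (-6.28), the lipid presenter Cd1d1 (-4.20) and Myof (-3.14), while Rundc3b (2.07) of that list was higher in brain. Entry was through the spleens alone for 5 of the 10. Of the antibody list 12 of 13 were higher in spleen, the constant regions Ighd (-8.80), Ighg2c (-7.40) and Igha (-7.22) among them, and Xbp1, of the secretory response (-0.71), did not pass. The spleens alone had carried 12 of these 13 over the entry level. Of the germinal centre genes the death receptor Fas (-3.65) and the repressor Bcl6 (-1.44) were higher in spleen, and Basp1, also a growth cone protein (3.11), was higher in brain.

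T cells, natural killer cells and dendritic cells were all represented. Of 21 tested T-cell markers 20 were higher in spleen, 19 having entered through the spleens alone, and the exception was Bcl11b, a factor of T cells and cortical neurons, with 228, 290.4 and 385 in the brains, against 55.7, 196 and 335 in the spleens. The adhesion receptor Cd2 (-6.91) and the receptor chains Trbc1 (-6.77), Cd247 (-6.47) and Cd3g (-6.40) led, and Cd3d had no read in any brain, against 28.5, 50 and 66.7 in the spleens. Effector genes higher in spleen were the chemokine Ccl5 (-5.06), the checkpoint receptor Ctla4 (-4.29), the factor Tbx21 (-3.97) and Il2ra (-3.84), and the costimulator Icos was higher there by 517-fold (95% exact interval 177 to 2510.3, from 3 reads in the 7 brains together). Natural killer receptors Klrk1 (-5.88), Klrd1 (-4.68) and Klre1 (-3.71) were higher too, and the pore protein Prf1 was higher in spleen by 564-fold (95% exact interval 156 to 4664, from 2 reads in the 7 brains together). All 12 tested dendritic cell genes were higher in spleen, 10 having entered through the spleens alone, with the integrin Itgax (-5.99) and the receptor Clec9a (-5.78).

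Signalling behind the antigen receptors went with them. Of 18 B-cell receptor genes, 14 of which had entered through the spleens alone, 17 were higher in spleen, Cd79a and Cd22 among them. The exception was the kinase Prkcb, which neurons also use, with 1188, 1322 and 1541 in the brains, against 527, 933 and 979.6 in the spleens. Of the T-cell receptor genes 15 of 16 were higher in spleen, 14 of the 16 having entered through the spleens alone. The phosphatase Ptprc (-7.71) and the adaptors Skap1 (-6.74) and Themis (-6.60) were among them. Rasgrp1, an activator of Ras in T cells and neurons (2.08), was higher in brain. Of 20 cytokine receptor and JAK-STAT genes 17 were higher in spleen, among them Il21r (-6.42), Stat4 (-5.77), Il7r (-5.77) and Il2rb (-4.62). Entry was through the spleens alone for 12 of these 20. The shared receptor Il6st (-0.54), Jak2 (-0.90) and Ifnar1 (-1.10) did not pass.

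Chemokines divided by tissue. Cxcl13, which draws B cells into follicles (-8.11), and the receptors Cxcr5 (-6.41) and Ccr6 (-6.31) were among 10 of 14 higher in spleen. Entry was through the spleens alone for 8 of the 14 and through the brains alone for 3. Higher in brain were Cx3cl1, the neuronal ligand of microglia (7.23), with 379, 417 and 466 in the brains, against 0.372, 1.5 and 8.71 in the spleens, Cxcl14 (5.73) and the decoy receptor Ackr1 (3.86). Innate sensors were higher in spleen for 9 of 10, and 9 of the 10 had entered through the spleens alone. Tlr1 (-5.28), Unc93b1 (-5.03), Nlrc4 (-4.46) and Aim2 (-4.35) led, and Tlr3, the sensor of double-stranded RNA (-0.44), did not pass. Of the interferon-stimulated genes 7 of 9 were higher in spleen, 8 of the 9 having entered through the spleens alone. Zbp1 (-4.22), Rsad2 (-4.08), Bst2 (-4.05) and Oasl2 (-2.91) led.

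Most tested genes of myeloid cells and platelets were higher in spleen as well, while the erythroid list was divided. Of 14 tested macrophage genes, 11 of which had entered through the spleens alone, 13 were higher, with a median of -3.94. Timd4, which binds dying cells (-6.78), was among the largest differences, and the scavenger receptor Marco was higher by 2438-fold (95% exact interval 834 to 11825, from 3 reads in the 7 brains together). Spic, the factor of red pulp macrophages, and Cd5l had no read in any brain, against 23.8, 44.3 and 149 and 22.9, 34.3 and 109 in the spleens. Slc40a1, the iron exporter, had 7.84, 11.3 and 18.8 in the brains, against 54.9, 242 and 766 in the spleens, the highest spleen being that of mouse 5. Without that mouse, list counts moved by over 1.5 times in 5 lists: 1 proteasome, 1 cholesterol synthesis and 1 neural transcription factor gene were then higher in spleen, and 3 mTOR pathway and 2 14-3-3 genes higher in brain. Monocyte and neutrophil genes Lyz2 (-7.56), Plac8 (-6.94), Ccr2 (-4.97) and S100a9 (-4.32), platelet genes Ppbp (-5.48), Itgb3 (-4.10) and Itga2b (-3.43) and the band 3 gene Slc4a1 of red cells (-5.18) were higher in spleen. Of 5 tested erythroid genes Slc4a1 alone was higher in spleen, and Sptb (3.01) and Tfrc (1.47), which neurons use too, were higher in brain. The median of the erythroid list was 0.88.

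Haemoglobin serves as a measure of blood left in the tissue. The 4 measured genes, Hba-a1 (-7.63), Hba-a2 (-7.10), Hbb-bs (-6.03) and Hbb-bt (-5.63), summed to 2.88 to 9.26 RPM in the brains, against 401 to 2487 in the spleens. Young red cells, which the mouse spleen makes, also carry these transcripts. The part of blood in the low brain levels of immune genes was not tested. Of the stromal genes Stab2, a scavenger receptor of sinus endothelium (-6.56), Wt1 (-5.30) and Coch (-3.5) were higher in spleen with Cxcl13, and Il33, an alarm cytokine (2.47), was higher in brain. Proliferation genes were higher in spleen for 15 of 16, and 15 of the 16 had entered through the spleens alone. Among them were Top2a and Mki67 of dividing cells (-6.86 and -6.54), Birc5 (-5.08) and the replication helicase Mcm3 (-4.91), and E2f1 (-0.99) did not pass. Markers of fat and pancreas, as neighbouring tissues, were low: the pancreas list summed to 0.712 to 1.9 RPM in the brains, against 6.01 to 40.3 in the spleens, and the fat list to 8.55 to 13.5 RPM in the brains, against 40.5 to 191 in the spleens. The highest spleen of both was that of mouse 5, and the part of such tissue in the results was not tested.

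Antigen presentation is carried by MHC class I in most cells and class II in professional presenting cells. Of 12 tested class I genes 11 were higher in spleen, among them the regulator Nlrc5 (-6.89), the heavy chains H2-Q4 (-6.78) and H2-K1 (-6.70) and the immunoproteasome subunit Psmb9 (-5.95), and Pdia3 (-0.73) did not pass. The spleens alone had carried 7 of these 12 over the entry level. All 10 tested class II genes were higher in spleen, 9 having entered through the spleens alone, with a median of -7.39. H2-Eb1, a class II chain, had 0.625, 1.31 and 1.78 in the brains, against 607, 717 and 972 in the spleens. Class II promoters carry a conserved element, the Y box, whose letters CTGATTGG stood in 3 of 8 promoters of the list (37.5%), against 4.7% of all promoters. A pair of them are printed with the letters in capitals, from H2-Eb1 at chr17:34305789-34305828 (plus strand) and H2-Aa (-8.16) at chr17:34287851-34287890 (minus strand).
H2-Eb1: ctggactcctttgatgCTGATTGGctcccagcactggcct
H2-Aa: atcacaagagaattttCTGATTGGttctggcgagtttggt

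PU.1, encoded by Spi1, is a master factor of myeloid and B cells. All 15 tested blood lineage factors were higher in spleen, 12 having entered through the spleens alone. They were Spi1 (-5.64), Ikzf1 (-6.56), Ikzf3 (-7.86), Runx1 (-6.82), Pax5 (-8.15), Ebf1 (-5.81), Klf2 (-4.42), Myb (-4.43), Irf8 (-5.33), Irf4 (-5.60), Gata3 (-2.45), Bach2 (-4.93) and Pou2f2 (-4.87) with Runx3 and Spib. Runx3 was higher by 2515-fold (95% exact interval 860.3 to 12199, from 3 reads in the 7 brains together) and Spib by 2372-fold (95% exact interval 811 to 11506, from 3 reads in the 7 brains together). The letters GAGGAAGT, a PU.1 motif, stood in 2.35% of promoters of genes higher in brain, in 6.64% of those of genes higher in spleen, in 3.67% of those of all tested genes and in 3.69% of all. Shown with these letters in capitals, or with ACTTCCTC where they lie on the other strand, are Fcrl1 (-7.48), a B-cell receptor, at chr3:87376347-87376386 (plus strand), the tetraspanin Cd37 (-7.15) at chr7:45238841-45238880 (minus strand), the inhibitory receptor Btla (-7.03) at chr16:45224297-45224336 (plus strand) and the lymphocyte adaptor Traf3ip3 (-6.76) at chr1:193201555-193201594 (minus strand).
Fcrl1: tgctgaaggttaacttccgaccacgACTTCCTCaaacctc
Cd37: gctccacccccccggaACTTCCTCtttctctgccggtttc
Btla: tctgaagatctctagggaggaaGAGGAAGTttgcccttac
Traf3ip3: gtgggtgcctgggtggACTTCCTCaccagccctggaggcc

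Neural lineage factors were higher in brain for 15 of 20 tested, 16 of the 20 having entered through the brains alone. Among them were Sox8 (4.43), Sox10 (3.95), Sox11 (4.10), Pou3f2 (6.03), Neurod2 (5.89), Neurod6 (6.36), Lhx2 (5.01), Olig1 (6.66), Olig2 (5.56), Zic1 (4.86) and Myt1l (7.37), with Tbr1, Pou3f1 and Emx2. Pou3f1 was higher by 565-fold (95% exact interval 193 to 2744, from 3 reads in the 7 spleens together) and Emx2 by 749.6-fold (95% exact interval 134 to 29643, from 1 read in the 7 spleens together). Not past the test were Nfib (1.16), Mef2c (0.14), Hivep2 (-0.82), Bcl11a (-1.38) and Npas3 (0.84). Mef2c, a factor of both neurons and B cells, had 1090.0, 1199 and 1269 in the brains, against 585, 1133 and 1389 in the spleens, and the ranges overlapped.

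**Figure D4:**
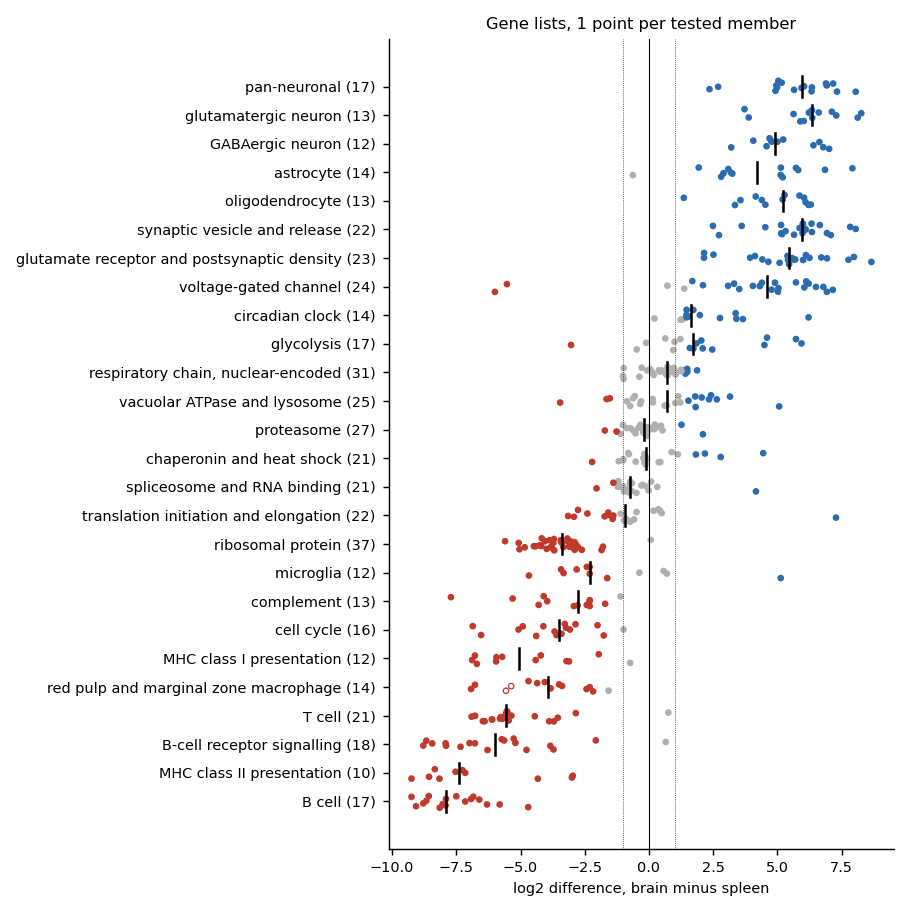
Log2 difference, brain minus spleen (horizontal axis), of each tested member of 26 gene lists (rows, with the number of members tested); blue and red mark genes past 2-fold higher in brain and in spleen, grey the rest, open circles genes with no read in any brain, black bars the medians, and dotted lines 2-fold. All synaptic vesicle genes lie on the right, B-cell genes on the left, and proteasome genes around 0 with a median of -0.18.

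Several gene families kept a neuronal member and a blood member. Of the SRC kinases, Src (2.34) was higher in brain, and Lck of T cells (-6.12), Blk of B cells (-7.50) and the myeloid members Lyn (-4.77) and Fgr (-6.73) were higher in spleen, while Fyn (-0.68) and Yes1 (0.69) did not pass. Of the Rac-related GTPases Rnd2 (4.22), Rhob (3.21) and Rac1 (1.27) were higher in brain, Rac2 and Rhoh, found in blood cells (-7.26 and -7.17), were higher in spleen with Rhoj (-2.51), Rhog (-1.70) and Rhoa (-1.28), and Cdc42 (-0.35) did not pass. Rac2 had 0.119, 0.5 and 0.643 in the brains, against 163, 210.3 and 291 in the spleens. Of the PI3K subunits the leukocyte forms Pik3cd (-4.51), Pik3cg (-3.97) and Pik3r5 (-4.70) were higher in spleen, Pik3r3 (2.52) and Pik3r2 (1.53) higher in brain, and Pik3cb (0.24), Pik3r1 (-0.26) and Pik3ca (-0.28) did not pass. Of protein kinase C, Prkcz (3.82) and Prkci (2.04) were higher in brain, Prkcd (-2.48), Prkch (-2.95) and Prkcq (-4.37) higher in spleen, and Prkce (1.32), Prkcb (0.65) and Prkca (0.36) did not pass.

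Motors, pumps and membrane machinery held neuronal forms beside general ones. Kif5a, a motor of axonal transport, had 2379.5, 2583 and 2724 in the brains, against 5.96, 9.15 and 13.5 in the spleens. The kinesins Kif1a (7.22), Kif5c (6.76), Kif21a (4.47), Kif3c (4.18), Kif1b (3.5), Klc2 (2.60), Kif3a (2.34) and Klc1 (2.12) were also higher in brain, Kif3b (0.40) and Kif21b (-0.85) did not pass, and the general forms Kif5b (0.15) and Kif1c (0.07) were level. Of the ion pumps Atp1b1 (6.39), Atp2b2 (6.20), Atp2b3 (5.83), Atp1b2 (5.40), Atp2a2 (3.43), Atp2b4 (3.03) and Atp2b1 (1.75) were higher in brain, the blood cell calcium pump Atp2a3 (-5.33) higher in spleen, and Atp1b3 (-0.34) did not pass. Dynamins, which cut vesicles from membranes, gave Dnm1 (5.96), Dnm3 (2.16) and the mitochondrial Dnm1l (1.74) higher in brain and the general Dnm2 (-1.85) higher in spleen. Septins gave Sept3 (6.21), Sept5 (6.03) and Sept8 (4.54) higher in brain, Sept1 (-5.13) and Sept9 (-1.58) higher in spleen, Sept4 (1.28), Sept7 (0.47), Sept10 (-0.76), Sept2 (-0.78) and Sept6 (-0.91) not past the test and Sept11 (0.10) level.

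**Figure D5:**
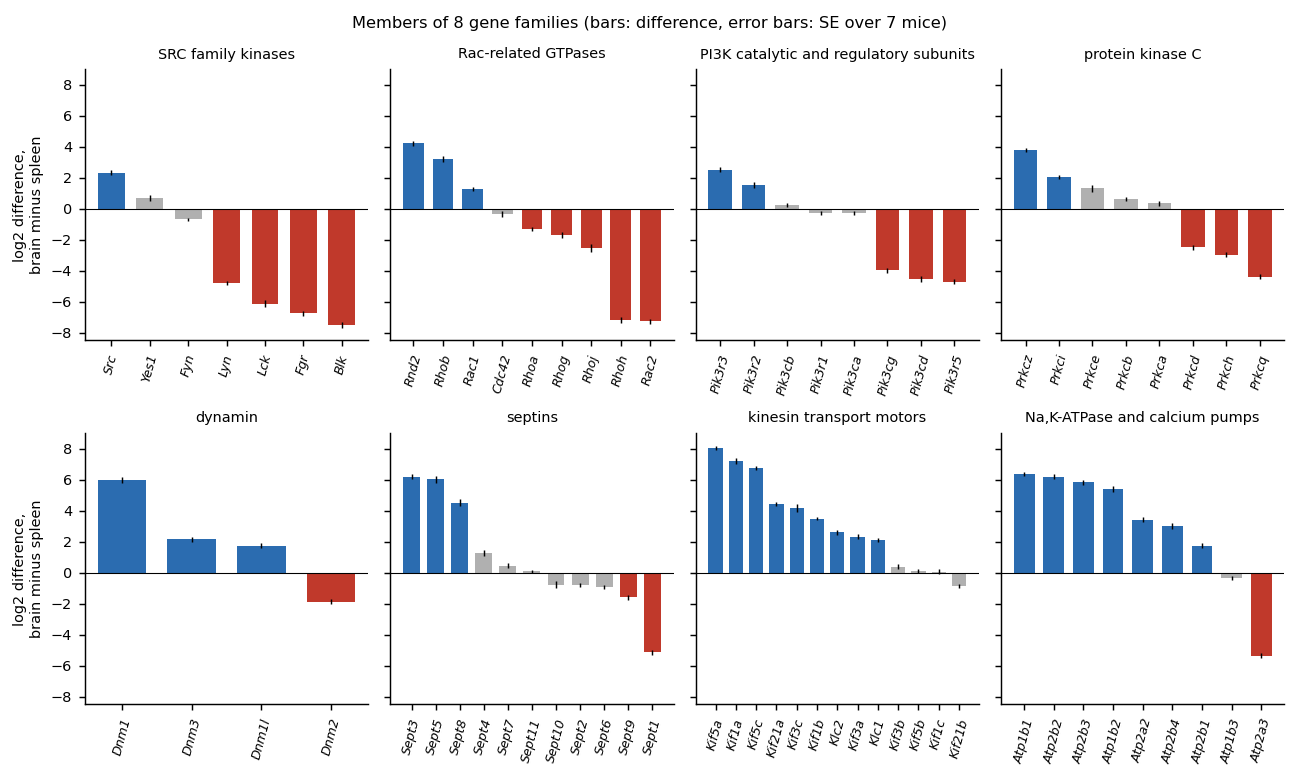
Log2 difference, brain minus spleen (vertical axis), of the members of 8 gene families given in the text, with SE over 7 mice as error bars; blue and red bars are past 2-fold higher in brain and in spleen, grey bars are not. SRC kinases run from 2.34 for Src to -7.50 for Blk, and kinesins from 8.07 for Kif5a to -0.85 for Kif21b.

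The cytoskeleton was divided as well. Of the beta-tubulins Tubb4a (5.63), Tubb3 (4.96), Tubb2a (3.20) and Tubb2b (1.72) were higher in brain, Tubb5 (-0.63) did not pass and Tubb4b (-0.07) was level. Of the alpha-tubulins Tuba1a (2.54) and Tuba4a (1.99) were higher in brain and Tuba1c (-3.29) and Tuba1b (-1.58) higher in spleen. Actb, the actin of most cells, had 747, 1037 and 1492 in the brains, against 3331, 7750.0 and 10631 in the spleens, and was higher in spleen. Higher there as well were Tmsb4x and Tmsb10, which hold actin monomers (-2.64 and -3.45), the bundling protein Lcp1 (-6.48), the nucleation factors Was (-5.30) and Wasf2 (-3.34) and the coronins Coro1a (-3.58), Coro1b (-2.15) and Coro2a (-4.03). The actin regulators Wasf1 (5.73), Wasf3 (4.64), Coro2b (3.36), Pls3 (2.87), Wasl (2.42) and Cfl2 (1.79) were higher in brain, and Actg1 (-1.52), Cfl1 (-0.68) and Coro1c (0.43) did not pass. Of the spectrins and ankyrins Sptbn4 (5.75), Epb41l1 (5.03), Ank2 (4.15), Ank3 (3.95), Sptb (3.01), Epb41l3 (2.64), Ank1 (2.42) and Sptan1 (2.15) were higher in brain and Sptbn1 (1.33), Epb41 (-0.71) and Epb41l2 (-0.66) did not pass.

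Calcium and MAP kinase signalling genes were more often higher in brain than in spleen, beside 26.4% and 23.3% of all tested genes. Calcineurin subunits Ppp3r1 (4.14), Ppp3cb (2.15) and Ppp3ca (1.78), the calmodulin genes Calm3 (3.01) and Calm2 (2.66) and the inhibitor Rcan2 (5.32) were higher in brain, the catalytic form Ppp3cc (-2.25) was higher in spleen, and Rcan1 (1.12) did not pass. In the CaM kinase II family Camk2a and Camk2g (2.2) were higher in brain and Camk2b (-0.75) and Camk2d (-0.73) did not pass, with 514, 606 and 676 in the brains, against 469, 1193 and 1443 in the spleens for Camk2b. The MAP kinases Mapk10 (6.67), Mapk9 (2.49) and Mapk8 (1.98) were higher in brain, Mapk12 (-2.28) higher in spleen, and Mapk3 (0.91), Mapk11 (-0.39) and Mapk14 (-0.90) did not pass. Of the cyclin and CDK genes Cdk5 and its activator Cdk5r1, which act in neurons (2.15 and 4.85), were higher in brain, the cell cycle genes Ccnd3 (-5.25), Cdk2 (-4.79), Cdk6 (-3.94) and Ccnd2 (-1.96) higher in spleen, and Ccnd1 (-0.31), Cdk4 (-1.20) and Cdkn1b (-1.05) did not pass. Of the 14-3-3 adaptors Ywhag (3.93) was higher in brain, Ywhah (1.30), Ywhae (1.29), Ywhab (1.14) and Ywhaz (0.70) did not pass, and Ywhaq (0.16) was level.

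RNA-binding and chromatin families held members on both sides, to be read against 26.4% of all tested genes higher in brain and 23.3% in spleen. The splicing and stability factors Elavl2 (7.44), Elavl4 (6.92), Celf5 (6.55), Elavl3 (6.34), Srrm3 (5.37), Rbfox3 (5.17), Celf4 (4.72), Rbfox2 (4.41), Nova1 (4.28), Celf3 (4.18), Celf6 (3.95), Rbfox1 (3.65), Nova2 (2.96) and Mbnl2 (1.48) were higher in brain, Mbnl3 (-4.31), Ptbp3 (-2.77) and Mbnl1 (-1.85) higher in spleen, Ptbp2 (0.86), Celf2 (0.87) and Celf1 (0.29) not past the test, and Elavl1 (-0.23) level. Of 22 tested BAF genes 5 were higher in brain and 5 in spleen, near the shares of all tested genes. In the BAF remodelling complex the neuronal subunits Dpf1 (4.79), Actl6b (4.77) and Ss18l1 (2.34) were higher in brain with Smarcd3 (2.89) and Smarcd1 (1.49), while their counterparts Actl6a (-1.37) and Ss18 (-1.38) were higher in spleen with Smarcd2 (-3.23), Arid1b (-1.44) and Smarce1 (-1.24). The other subunits Bcl7a (1.00), Dpf3 (0.79), Bcl11b (0.76), Smarcc2 (0.27), Smarcb1 (0.26), Dpf2 (-0.21), Smarca4 (-0.82), Arid2 (-0.91), Smarcc1 (-0.96), Arid1a (-1.14) and Bcl11a (-1.38) did not pass, and the ATPase Smarca2 (-0.13) was level. Of the BCL2 family Bcl2, Mcl1, Bcl2l11 and Bid, which decide cell survival (-3.25, -3.03, -2.34 and -1.97), were higher in spleen. Hrk, a neuronal death factor, was higher in brain by 2812-fold (95% exact interval 504 to 111089, from 1 read in the 7 spleens together), Bcl2l1 (0.94) and Bax (-0.36) did not pass, and Bad (-0.04) was level.

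Genes of the ribosome were all but uniformly higher in spleen. Of 37 tested ribosomal protein genes 36 were higher in spleen, 34 had entered through both tissues, and the median was -3.40. Their summed level was 1876 to 2646 RPM in the brains, against 23628 to 37547 in the spleens. Rpl4, of the large subunit, had 233, 279 and 324 in the brains, against 1996, 2455 and 4112 in the spleens. Rps27, Rpsa and Rps23 of the small subunit were among the most different (-5.60, -5.04 and -4.84), and the paralog Rpl22l1 (0.07) did not pass. Elongation factors went with them: Eef1b2 (-3.15), Eef1a1 (-2.92), which had 252, 266 and 379.7 in the brains, against 1345, 2201 and 3700.5 in the spleens, and Eef1g (-2.76). Its neuronal and muscle paralog Eef1a2 had 210.2, 273 and 372 in the brains, against 0.221, 0.783 and 1.8 in the spleens, and was the 1 translation gene of 22 higher in brain, against 9 higher in spleen. Ribosomal protein genes are short, with a median span of 3.78 kb, and have near-identical copies, and the part of either in these values was not tested.

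Many ribosomal protein transcripts start with a C followed by a run of C and T, a feature by which growth signals control their translation. Such a start was found in 6 of 29 promoters of the list (20.7%), against 3.01% of all, counting a C and at least 4 further C or T from the RefSeq start. The first base in capitals is the start: Rpl14 at chr9:120571507-120571536 (plus strand), Rplp2 at chr7:141447641-141447670 (plus strand), Rps27 at chr3:90213629-90213658 (minus strand) and Rps6 at chr4:86857348-86857377 (minus strand).
Rpl14: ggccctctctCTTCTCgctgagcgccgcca
Rplp2: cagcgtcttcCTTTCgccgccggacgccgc
Rps27: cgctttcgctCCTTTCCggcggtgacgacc
Rps6: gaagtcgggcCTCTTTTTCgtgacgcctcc

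Genes of energy metabolism differed by list, to be read against the 26.4% of all tested genes higher in brain. Of the glycolytic genes 10 of 17 were higher in brain, with the neuronal enolase Eno2 (5.94), Aldoc, the phosphofructokinase Pfkm (4.60) and the lactate dehydrogenase Ldhb (4.50) in front. The hexokinases went opposite ways: Hk1 (1.73) was higher in brain and Hk2 (-3.03), the inducible form, higher in spleen, and the neuronal glucose transporter Slc2a3 (2.01) was higher in brain. Of the citric acid cycle genes 5 of 16 were higher in brain, with Idh3a (3.13) and Mdh1 (1.73), and Suclg2 (-2.25), the GTP-forming subunit, was higher in spleen. Of the nuclear-encoded respiratory chain 5 of 31 were higher in brain and 0 in spleen, led by Atp5g1 (1.87), Atp5b (1.49), Ndufv1 (1.49) and Ndufa9 (1.42), with a list median of 0.71. Cholesterol synthesis gave 5 of 13 higher in brain, among them Hmgcs1 (2.04) and Msmo1 (1.75).

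Most other shared machinery had members on both sides, to be read against 26.4% of all tested genes higher in brain and 23.3% in spleen. Of 27 proteasome genes 2 were higher in brain, 2 higher in spleen and 6 level, with a median of -0.18. Psmb7, the constitutive subunit that Psmb10 replaces in immune cells, had 97.1, 141 and 182 in the brains, against 22.3, 31.4 and 39.5 in the spleens, and was the most different. Psmc2 (1.27) was higher in brain, and Psma4 (-1.72) and Psmd4 (-1.26) higher in spleen. Of the chaperones 4 of 21 were higher in brain and 1 in spleen, the mitochondrial Hspe1 (-2.21), and 6 were level. Of the spliceosome genes Snrpn, the neuronal form of an Sm protein (4.16), was higher in brain, and Hnrnpa1 (-2.04) and Hnrnpc (-1.39) higher in spleen, out of 21. Of the RNA polymerase II and mediator genes 2 of 20 were higher in spleen, Med13 (-1.68) and Polr2a (-1.52). Of the proton pump and lysosome genes 9 of 25 were higher in brain, led by the pump subunits Atp6v1g2 (5.07), Atp6v1a (3.16) and Atp6v1b2 (2.64), and the lysosomal Ctsz, Hexa and Grn (-3.46, -1.65 and -1.52) were higher in spleen.

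Genes often used to scale expression stood on both sides, beside 49.8% of all tested genes past 2-fold in either direction. Of 16 tested, 2 were higher in brain and 6 higher in spleen. Higher in spleen with Actb were Rpl13a (-4.31), Rplp0 (-4.19), Gusb (-2.50) and Ppia (-1.52). Gapdh had 8.07, 10.4 and 15.6 in the brains, against 8.93, 12.3 and 17.2 in the spleens, ranges that overlap, at a level that its near-identical copies make uncertain. Tbp (0.44), Ppib (0.32) and Hprt (0.89) did not pass.

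Most tested clock genes were higher in brain. Of 14 tested, 11 were higher in brain, beside 26.4% of all tested genes, with a median of 1.64. Of these 14, 7 had entered through the brains alone, so a difference was built into their choice. A further 2 clock genes are listed at 0 in all libraries. Hlf, an output factor of the clock, had 369, 446 and 483 in the brains, against 2.98, 4.74 and 10.7 in the spleens. Nr1d1, a repressor of the core loop (3.66), Cry2, of the negative limb (3.40), and Tef (3.38) followed, and Arntl, of the positive limb (0.21), was level. The hour of sampling is not given in the sources used here. Over the 7 mice, brain and spleen levels of the 14 clock genes had a median Pearson r of 0.11, from -0.44 to 0.76. The highest was Npas2, with r = 0.763 (exact permutation p = 0.0446, adjusted over all 10914 genes 0.996) and Spearman rho 0.893 (exact p = 0.0123, adjusted 1), and r was 0.978 without the 2 mice farthest from the median. No gene of the 10914 passed the adjustment, and 482 (4.4%) had an unadjusted exact p under 0.05.

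Responses to activity and hormone were mixed, beside 26.4% of all tested genes higher in brain and 23.3% in spleen. Of the immediate early genes 5 of 12 were higher in brain, among them Arc, which neuronal activity induces, with 47.2, 104 and 136 in the brains, against 0.347, 1.1 and 1.61 in the spleens, and the factors Fosb (3.88) and Egr1 (2.86). Higher in spleen were 4, led by Zfp36, which destabilises cytokine transcripts (-4.67). Of the glucocorticoid-responsive genes Klf9 (3.42), Mt1 (2.97), Cdkn1a (1.82) and Zbtb16 (1.77) were higher in brain and Fkbp5 (-1.39) higher in spleen. Of the mTOR pathway the complex subunit Mlst8 (1.50) was higher in brain and the lysosomal regulator Tfeb (-3.48) higher in spleen, out of 15. Complement genes were higher in spleen for 12 of 13, led by C3, the central component (-7.71), with Cd55 (-5.31), Serping1 (-4.29) and C1ra (-4.10). Entry was through the spleens alone for 10 of these 13, so a difference was built into their choice.

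Spleens varied more between mice than brains. Over the 1066 genes with a mean of at least 100 RPM in both tissues, the median SD of log2 levels over mice was 0.155 in brain and 0.299 in spleen. Spleen was the more variable for 85.5% of them, and for 77.3% without mouse 5, when its median SD was 0.241. The most variable genes of brain above that mean were CT010467.1, from 53.8 to 232 RPM, and Lars2, a mitochondrial tRNA ligase, from 124 to 591, both highest in mouse 6. In spleen, Sparcl1, a matrix protein, ran from 24.1 to 452, and Star, which brings cholesterol into mitochondria for steroid synthesis, from 26 to 343, both highest in mouse 5. Without mouse 5, Ighg2c led, from 84.8 to 535, followed by Hbb-bs, from 79.7 to 642. These genes were chosen by their spread.

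Genes higher in brain covered longer stretches of the genome. In GENCODE M21 the median span from first to last exon was 43 kb for genes higher in brain, 26.9 kb for genes higher in spleen and 31.2 kb for level genes, with 99.8% of tested genes matched. Median exon lengths were 5.37 kb, 4.46 kb and 5.44 kb. In the fifth of genes with the longest spans, 39.1% were higher in brain and 21.2% in spleen, and in the fifth with the shortest, 23.6% and 29.1%. Whether reads in introns were counted is not given in the sources used here, and the part of span in the differences was not tested. Promoters rich in CpG, with over 0.5 of the expected number, made up 73.7% of 2169 for genes higher in brain, 68.2% for genes higher in spleen, 91.7% for level genes and 80.9% for all tested genes. The ETS letters CCGGAAGT stood in 3.6%, 7.56% and 12.7% of the promoters of these 3 groups of genes, in 8.97% of those of all tested genes and in 4.31% of all promoters. These letters differ from the PU.1 letters, and a match is a description of the window, not a site.

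The difference between the tissues was seen at other ages as well. In the 38 mice of the 5 other ages, from 5 to 26 months, 2738 (94.6%) of the genes higher in brain and 2432 (95.2%) of those higher in spleen had the same direction in every mouse. At 5 and at 8 months 1 pair of brain libraries each had counts no further apart than sampling noise, 2 pairs in all. Each pair may be 1 library deposited under 2 animals, which was not tested, and 36 separate brains would then remain. No pair of 3-month libraries was that close. Of the level genes, 801 kept a mean difference within 0.5 over all these mice, and 604 did so at each of the 5 ages. Of the 12 named level genes 7 did, and Ptk2b, for one, had means of 0.86 at 20 and 0.77 at 26 months.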

How the data were processed

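RNA was read from 7 brains and 7 spleens. Per the labels' protocols, total RNA was taken from flash-frozen tissue with TRI-Reagent and libraries were built with a TruSeq kit. The submitters' processing notes name the build GRCm38 (mm10) and, with no order or role, HISAT2 2.1.0, DESeq2, bcl2fastq 2.20, SAMtools, cutadapt and R 3.5.1, while the read counter, its annotation and its use of strand are not given in the sources used here. Each deposited signal value is a gene's read count over a size factor of its library, set separately in the table of each tissue. In each of the 14 columns 100.0% of values were whole multiples of 1 read to within 0.01 read, and rescaling to RPM cancelled the size factor. Calls were made with limma 3.58.1 against 2-fold, on log2 of RPM plus 1, with the mouse as a block, 2-sided, with Benjamini-Hochberg adjustment over 10946 genes (adjusted p under 0.05). Samples were paired because the labels give both organs of a mouse 1 animal number. The correlation of a mouse's brain and spleen deviations from the tissue means ran from -0.18 to 0.13. Between a brain and the spleen of another mouse it reached 0.286. Only the brain of mouse 6 was closest to its own spleen, so the pairing rests on the labels. The p-values measure the spread between 7 mice.

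Alternatives were edgeR 4.0.16 and DESeq2 1.42.0 on the recovered reads, other scalings, pseudocounts and filters, no block, and leaving out each mouse. The R scripts (R 4.3.3) were tested on simulated data. Named were the 12 largest differences each way among called genes whose mean in the higher tissue was 100 RPM or more, the 12 level genes with the highest mean, up to 4 called members per list with the largest difference, and every tested member of a family. Some genes that the rule names are not reported here. Predicted genes and variable segments of antigen receptors were left out of the rule. Other genes given with values, such as those with the smallest difference of a list, those that did not pass, those with no read in 1 tissue and those shown with a promoter, were chosen after their values were seen. The members and the lists were chosen with earlier results of these data known. Counting intervals cover counting error only, as the reads carry no molecular identifiers that the sources mention. Promoters are from RefSeq (GRCm38.p6) and gene spans from GENCODE M21.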

Additional observations from a re-analysis of the deposited data

Results flagged for a closer look

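In 20 of 138 groups of 7 libraries, over the genes given by library and the summed lists, 1 library lay far from the rest by Dixon's test at the 95% level (the gap to its nearest neighbour set against the range of the group). The rate of 1 in 20 that this level gives by chance holds for independent, normally distributed values. RPM were tested without taking logs and some groups share genes, so the 20 groups cannot be set against that rate. Spleen had 19 of them, and 13 were the spleen of mouse 5. All values here are RPM. In that spleen the B-cell genes were low: Bank1 (297, others 889.7 to 1318), Cr2 (545, others 1581 to 1983) and the summed B-cell markers (5806, others 9099 to 11063), with the kinase Prkcb (527, others 854 to 979.6). Antibody genes were high there, namely Ighm (12013, others 1837 to 5674) and Ighg3 (6271, others 107 to 1019.6), and so were the red pulp macrophage genes Spic (149, others 23.8 to 60.3), Cd5l (109, others 22.9 to 52.6) and Slc40a1 (766, others 54.9 to 288). High in it as well were Itm2b (1814, others 420.2 to 761), Cx3cl1 (8.71, others 0.372 to 2.54), Hlf (10.7, others 2.98 to 5.25) and the summed fat-cell genes (191, others 40.5 to 57.6).

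The spleen of mouse 1 was high for haemoglobin (2487, others 401 to 1133), for summed ribosomal protein genes (37547, others 23628 to 29588), and for Rpl4 (4112, others 1996 to 2619). Its Hpcal4 value (0.322, others 0 to 0.116) also met the test, but on 2 reads in the 7 spleens together, which shows no outlying level. The spleen of mouse 3 was high for Cd79a (933, others 358 to 531), and that of mouse 7 for Snhg11 (20.3, others 6.73 to 12). Of the brains, mouse 3 was high for the summed fat-cell genes (13.5, others 8.55 to 9.92).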

How the results depend on the processing

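The counts over all genes kept within 1.5 times of those reported under all but 1 of the alternatives run, 18 for the counts of differing and 2-fold genes and 17 for level genes, for which edgeR gave no interval. The exception was a test with no filter on low values. With every gene that had a read tested (27119 genes), 15949 differed and 8141 were level, since genes with few reads sit near 0 on this scale, while 3762 were more than 2-fold higher in brain and 3488 in spleen. Leaving out each mouse in turn gave 2798 to 3017 genes higher in brain, 2455 to 2613 higher in spleen, 8976 to 9447 differing and 571 to 903 level. With no replicate block, that is without the pairing by mouse, 2897 genes were higher in brain, 2558 in spleen and 867 level, and of the named genes the block changed the call of Psmc2, which lost it, and Ywhae, which gained it. On the recovered reads, edgeR's quasi-likelihood test called 3057 genes higher in brain and 2785 in spleen, and DESeq2 called 2831 and 2512. TMM scaling put 27.5% of genes higher in brain and 22% in spleen, and median-ratio scaling 27.7% and 21.8%; these scalings moved all differences towards brain by 0.097 and 0.11 on the log2 scale. A filter of 1 RPM left 15732 genes, 3876 of them higher in brain and 3536 in spleen, and one of 30 left 7356, 2137 and 1727 of them. Pseudocounts of 0.25 and 5 gave 2919 and 2710 genes higher in brain, against 2577 and 2314 higher in spleen.

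Of the 511 named genes, none changed direction under the 18 alternatives where its call was made, 16 lost a call under at least 1 and 11 gained one. The calls lost without a mouse, with the log2 difference then fitted, were those of Actl6a (without mouse 3, 6 or 7, -1.36 to -1.32), Csf1r (without mouse 1, 3, 5 or 6, -1.63 to -1.27), Fkbp5 (without mouse 7, -1.31), Grn (without mouse 3 or 5, -1.47 to -1.30), Mlst8 (without mouse 3, 6 or 7, 1.28 to 1.48), Ndufa9 (without mouse 7, 1.29), Pik3r2 (without mouse 7, 1.39), Psmc2 (without mouse 1, 2 or 6, 1.22 to 1.26), Psmd4 (without mouse 3, 4, 5, 6 or 7, -1.26 to -1.22), Rac1 (without mouse 1, 2, 4, 6 or 7, 1.21 to 1.26), Rhoa (without mouse 1, 3, 5, 6 or 7, -1.30 to -1.22), Smarce1 (without mouse 1, 3, 4 or 6, -1.26 to -1.20) and Ss18 (without mouse 2, 3 or 4, -1.32 to -1.27). Calls gained without a mouse were those of Actg1 (without mouse 2, -1.75), Adora2a (without mouse 4, 1.47), Bcl11a (without mouse 5, -1.64), Ehmt1 (without mouse 5, -1.34), Sept4 (without mouse 5, 1.51), Sptbn1 (without mouse 5, 1.57), Ywhae (without mouse 3 or 4, 1.36) and Ywhah (without mouse 1 or 5, 1.37 to 1.39). Under TMM or median-ratio scaling, calls were lost for Actl6a, Bcl6, Csf1r, Fkbp5, Hnrnpc, Psmd4, Rhoa, Smarce1 and Ss18 and gained for Nfib, Sptbn1, Ywhae and Ywhah. A pseudocount of 5 ended the calls of Actl6a, Cdkn1a, Csf1r, Grn, Mlst8, Pik3r2, Psmc2, Psmd4, Rac1, Rhoa, Smarce1 and Ss18, and DESeq2 those of Csf1r, Mlst8, Psmd4, Rac1, Rhoa and Ss18, while edgeR added Actg1, Bcl11a, Cdk4, Prkce, Sptbn1, Ywhae and Ywhah. The causes were not tested. In a recount of the gene lists chosen after seeing the data, 141 of 3132 counts moved by over 1.5 times, 78 of them where the filter and so the tested members changed. The rest were small, and examples follow. BAF subunits higher in spleen, 5 as reported, were 2 under TMM, median-ratio scaling, a pseudocount of 5 or without mouse 3. They were 3 without mouse 4 or 6. RNA polymerase II and mediator genes higher in spleen were 5 with edgeR, against 2 as reported. Vessel genes higher in spleen were 1 with a pseudocount of 5, against 3 as reported. Respiratory chain genes higher in brain were 3 without mouse 7, against 5 as reported. Proteasome genes in either direction, 14-3-3, PI3K and mTOR pathway genes in brain and Fkbp5 of the glucocorticoid list changed by 1 to 3 genes without a mouse or under another scaling. For the clock genes, no correlation passed the adjustment under any alternative run (0 in each), and the median r was -0.03 to 0.37, the highest without mouse 5 and the lowest without mouse 6. A read count of 4212565 to 9374535 per brain library and 3105557 to 9068038 per spleen library limits what can be said of genes with a few reads.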

Other observations

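Sptb, Ank1 and Slc4a1, chosen after their values were seen for their change, had lower brain minus spleen means at each later age, while other spectrin and ankyrin genes such as Sptan1 and Epb41l1 were higher at some ages (2.15 and 5.03 at 3 months, 2.45 and 5.47 at 5 months). The brain minus spleen log2 difference of Sptb, a spectrin, was 3.01 at 3 months, and its means at 5, 8, 14, 20 and 26 months were 1.94, 1.84, 2.34, 1.30 and 0.13 (9, 8, 9, 7 and 5 mice, with the pairs of brain libraries within sampling noise counted as deposited). Ank1, an ankyrin, had 2.42 at 3 months and means of 0.71, 0.42, 1.24, 0.34 and -0.52 at the later ages. For Slc4a1, the anion exchanger of red cells, which was higher in spleen, the values were -5.18 at 3 months and -6.27, -6.36, -5.69, -6.97 and -7.77 later. Single mice at the later ages ran from -3.62 to 2.67 for Ank1, and the change with age was not tested.

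Over the 7 mice of 3 months, brain and spleen levels of the haemoglobin gene Hbb-bs had a Pearson r of 0.93 (exact permutation p = 0.000397, adjusted over all genes 0.928) and a Spearman rho of 0.964 (exact p = 0.00278, adjusted 0.978), and r was 0.869 without the 2 mice farthest from the median. For Hba-a1, Hba-a2 and Hbb-bt r was 0.81, 0.78 and -0.25. None passed the adjustment.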
